A study of Mus musculus with 35 samples.

Results

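The genes described here are 2 fucosyltransferase genes, Fut9 and Fut4, whose enzymes can make the sugar epitope SSEA1, and 4 genes of cell surface proteins, Thy1, Cd44, Icam1 and Pecam1. They were chosen by name, with earlier results of these data known, and are 6 of the 21631 protein-coding genes on chromosomes 1 to 19 and X in the gene table. For each gene, every deposited ChIP-seq peak over the gene or within 50 kb of either end was collected from 22 peak lists, 12 for the histone mark H3K27ac and 10 for the transcription factor KLF4. These windows held 741 peaks, 513 of H3K27ac and 228 of KLF4. Peaks were merged into regions, kept where at least 2 libraries of 1 stage had a peak, which gave 91 of the 106500 H3K27ac regions of the series and 36 of its 37140 KLF4 regions. A region is called present at a stage with a peak in at least 2 libraries, absent with a peak in none, and undecided with a peak in 1. The number of regions rests on these choices, and counts under other choices stand beside those they move. Where leaving out a library left 1 at a stage, a peak in that library was enough to keep a region.

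The study followed mouse embryonic fibroblasts (MEFs) on their way to induced pluripotency and compared them with embryonic stem cells (ESCs). The MEFs were of strain C57BL/6 x 129 and carried a doxycycline-inducible OKSM cassette (Oct4, Klf4, Sox2 and Myc) at Col1a1 and the M2rtTA transactivator at ROSA26, so KLF4 in the reprogramming cells includes the protein made from the transgene. The MEF libraries of H3K27ac are labelled as grown in MEF medium, while the MEF input, not analysed here, is labelled with doxycycline medium. Cells of days 3, 6 and 9 were kept in ESC medium, with doxycycline at 1 µg/ml and ascorbic acid at 50 µg/ml, and were unsorted at day 3 and sorted for SSEA1 at days 6 and 9, so time and sort cannot be told apart between days 3 and 6. ESCs were of the line V6.5, grown on irradiated feeder cells with serum and LIF, which leaves some feeder fibroblasts possible in those libraries. A further ESC group, for KLF4 alone, also received 1 µM of a MEK inhibitor and 3 µM of a GSK3 inhibitor (2i). H3K27ac was profiled in 2 MEF, 3 day 3, 3 day 6, 2 day 9 and 2 ESC libraries, and KLF4 in pairs of libraries from days 3, 6 and 9, from serum ESCs and from 2i ESCs. The sample titles carry codes, such as DG-3458 and EA-3702, whose meaning the labels do not give, and libraries with 1 code are called a batch here. H3K27ac in MEFs and ESCs was all DG-3458 and day 9 all EA-3702, so stage and batch cannot be told apart between day 9 and those groups.

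SSEA1, or Lewis x, is a fucosylated sugar chain on the surface of mouse pluripotent cells. A fucosyltransferase adds the fucose that completes it, and Fut9 and Fut4 encode the enzymes best known for this step. Thy1 encodes a glycosylphosphatidylinositol-anchored protein that is used to recognise fibroblasts, and Cd44 encodes a hyaluronan receptor. Icam1 encodes an adhesion ligand of leukocyte integrins, and Pecam1 an adhesion molecule known from endothelium and also found on mouse ESCs. During reprogramming, loss of THY1 and CD44 and gain of SSEA1, ICAM1 and PECAM1 on the surface are used to sort cells by progress. H3K27ac marks active promoters and enhancers, and KLF4 is a zinc finger factor that binds GC-rich and CACCC-type motifs.

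The lists differed in length. H3K27ac lists held 17493 to 88347 peaks, fewest at day 6 and most in MEFs, and KLF4 lists 21129 to 34640. H3K27ac peaks covered 5.68% and 5.72% of the average gene window in the MEF libraries and 0.987% to 1.90% in the day 6 libraries. H3K27ac is therefore given both as the percent of a gene's window under peaks and as relative coverage, that percent divided by the mean over all 21631 windows of the same library, so that 1 is the average gene. KLF4 is given in percent by library, with the range of relative coverage beside it. Coverage in the marker genes of the labelled cells followed the labels. Relative H3K27ac coverage summed over 8 fibroblast markers, Thy1 and Cd44 among them, was 24.0 to 24.2 in MEFs, 0.875 to 2.64 at day 6 and 1.97 to 2.00 in ESCs. Over 6 markers of pluripotent cells the sum was 3.04 to 3.10 in MEFs and 28.5 to 29.2 in ESCs.

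The promoter sequences of Fut4, Cd44 and Icam1 are shown because a peak lay over each of them in some stages and not in others. They are RefSeq sequences of GRCm38.p6 (mm10), 250 bases before to 50 bases after the gene start, written 5′ to 3′ on the gene's strand, and 3 of the 6 genes matched the promoter table. Capitals mark matches to 2 motifs searched on both strands, the KLF-type GC box GGGNGNGGC and the CACCC box CCACCC, which on the opposite strand reads GGGTGG. The Fut4 promoter lies at chr9:14752073-14752372 on the minus strand, the Cd44 promoter at chr2:102901616-102901915 on the minus strand and the Icam1 promoter at chr9:21015690-21015989 on the plus strand.
Fut4: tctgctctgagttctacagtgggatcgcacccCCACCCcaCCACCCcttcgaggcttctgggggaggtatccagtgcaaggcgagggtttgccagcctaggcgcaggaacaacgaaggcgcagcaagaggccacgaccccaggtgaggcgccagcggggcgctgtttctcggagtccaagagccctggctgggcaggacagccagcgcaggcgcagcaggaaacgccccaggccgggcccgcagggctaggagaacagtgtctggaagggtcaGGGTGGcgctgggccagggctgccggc
Cd44: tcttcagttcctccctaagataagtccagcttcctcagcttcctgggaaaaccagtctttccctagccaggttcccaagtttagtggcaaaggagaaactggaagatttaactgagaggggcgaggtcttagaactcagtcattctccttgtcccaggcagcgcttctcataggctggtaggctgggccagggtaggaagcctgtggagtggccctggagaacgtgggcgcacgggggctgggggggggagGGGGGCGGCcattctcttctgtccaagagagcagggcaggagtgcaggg
Icam1: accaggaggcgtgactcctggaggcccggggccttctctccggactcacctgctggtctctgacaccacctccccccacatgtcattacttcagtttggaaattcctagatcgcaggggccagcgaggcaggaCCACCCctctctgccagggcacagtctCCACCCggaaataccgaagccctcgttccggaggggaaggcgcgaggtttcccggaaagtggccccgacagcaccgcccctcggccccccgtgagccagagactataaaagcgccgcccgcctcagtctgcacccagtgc
Fut4 had 2 CACCC boxes on the given strand and 1 on the other, Icam1 had 2 on the given strand, and Cd44 had 1 GC box. Of 32619 promoters of this length, 25.9% held the GC box and 31.6% the CACCC box, so a match is common. H3K27ac peaks lay over the Cd44 promoter in 2 of 2 MEF, 3 of 3 day 3, 2 of 3 day 6, 2 of 2 day 9 and 0 of 2 ESC libraries, and the counts for the Fut4 promoter were the same. Over the Icam1 promoter they lay in both MEF and both ESC libraries and in none of days 3 to 9. KLF4 peaks lay over the Icam1 promoter in both serum ESC libraries and in 1 of the 2i libraries. Over the Cd44 promoter they lay in both day 3 and both day 9 libraries and in 1 of 2 at each other stage. Over the Fut4 promoter they lay in 1 day 3, 1 serum ESC and 1 2i library.

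Fut9 went from no H3K27ac peak in MEFs to 5 regions in ESCs, all of its 5, and the end of the gene was acetylated from day 6. With equal numbers of top peaks it had 2 regions, and 5 to 7 without a library. Of all H3K27ac regions of the series, 56.5% were present in MEFs and 45.8% in ESCs, against 25.4%, 12.1% and 29.7% on days 3, 6 and 9. The gene spans chr4:25609333-25800003, 191 kb, with no other protein-coding gene in its window. Which gene the regions at Fut9 act on was not tested. H3K27ac covered 0% of the window in both MEF libraries. At day 3 it covered 0.100% in the EA-3702 library and 0% in both DG-3458 libraries. At day 6 it covered 0.513% and 0.446% in the DG-3458 libraries and 0.568% in the EA-3702 library. At day 9 it covered 1.67% and 1.81%, and in ESCs 3.66% and 3.65%. The 5 stages did not overlap except where MEF and day 3 libraries were both at 0, and each stage from day 6 lay above all libraries of the stages before it. In relative coverage the order was less clear, since day 6 libraries (0.298 to 0.461) and day 9 libraries (0.397 and 0.423) overlapped, below ESCs (0.644 and 0.677).

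The coverage of Fut9 differed between stages (limma across 19778 genes, Benjamini-Hochberg adjusted p = 1.37e-06), as it did for 90.2% of all genes tested. Between day 3 and day 6 mean relative coverage went from 0.0105 ± 0.0182 (SD, n = 3) to 0.404 ± 0.0915 (SD, n = 3), with a log2 difference of 2.18 ± 0.15 (SE, after adding 0.1; limma adjusted p = 1.78e-05). At that step 23.9% of genes were called higher. ESCs were above MEFs by the same test (adjusted p = 1.67e-06, 30.3% of genes called higher). No fold is given because Fut9 was listed at 0 in MEFs. These Fut9 calls held under every alternative run, left-out libraries included.

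The region with the best deposited ranks at Fut9 was chr4:25794817-25800579, 5763 bases over the gene's upper-coordinate end. It had an H3K27ac peak in 0 of 2 MEF, 0 of 3 day 3, 3 of 3 day 6, 2 of 2 day 9 and 2 of 2 ESC libraries. Only 0.285% of all H3K27ac regions (303 of 106500) were absent in MEFs and at day 3 and present at day 6, and of the 91 regions around these genes this was 1. In the authors' deposited scores its best peak stood in the top 22.2% to 39.9% of the day 6 lists, the top 5.33% to 5.89% of the day 9 lists and the top 6.65% to 9.50% of the ESC lists. Inside the gene, 130 kb from that end, chr4:25669023-25670786 was acetylated in both ESC libraries and in no other, and chr4:25671356-25673056 in both day 9 and both ESC libraries. The other 2 regions, 1 in the gene and 1 at 15.4 kb above it, were present in ESCs.

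KLF4 peaks at Fut9 overlapped its H3K27ac regions, and coverage was highest at day 9. Of the 3 KLF4 regions (2 with q at most 0.01 or with top peaks, 5 without replicate 2 of day 9, 8 with a peak in any library), 3 were present at day 9, 2 in serum ESCs and 0 at day 3, at day 6 and in 2i, where 51.5%, 43.4%, 48.1%, 40.2% and 40.5% of all KLF4 regions were present, in that order. KLF4 covered 0% and 0.106% of the Fut9 window at day 3, 0% and 0.0647% at day 6, 0.469% and 0.348% at day 9, 0.173% and 0.239% in serum ESCs and 0% and 0.158% in 2i. Both day 9 libraries lay above all others, and 3 of the remaining 8 were at 0. In relative coverage they were also the highest, at 0.458 and 0.678, against at most 0.432 elsewhere. All 3 KLF4 regions lay within the gene and overlapped an H3K27ac region. The region chr4:25796153-25796473 had a peak in 0 day 3, 1 day 6, 2 day 9, 2 serum ESC and 1 2i library, each of 2. The region chr4:25670653-25671097 had one in both day 9 and both serum ESC libraries and 1 in 2i. KLF4 peaks were thus called there at day 9, when the H3K27ac region it overlaps was not. The H3K27ac region next to it, chr4:25671356-25673056, had a peak in both day 9 libraries. The region chr4:25798414-25798692 had a KLF4 peak in both day 9 libraries and in 1 of day 3. Over all stages the KLF4 coverage of Fut9 did not pass the test (limma adjusted p = 0.127, 12.8% of 18861 genes called), but with only peaks of q at most 0.01 it did (0.0144). The day 9 minus day 3 difference was 1.98 ± 0.67 (SE, log2, limma adjusted p = 0.155). It was 1.23 without the EA-3702 library of day 3 and 2.72 without the DG-4040 library of that day. It passed with the q limit (adjusted p = 0.0486). For Fut9, ESC minus day 3 was 1.45 ± 0.67 (SE, limma adjusted p = 0.204). Without the EA-3702 and the DG-4040 library of day 3 it was 0.70 and 2.19. It passed with the q limit (limma adjusted p = 0.014) and with equal numbers of top peaks (0.0381).

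Fut4 had H3K27ac over its promoter from MEFs to day 9 and in no ESC library. The gene spans chr9:14748459-14752122, 3.66 kb, and its window holds Piwil4, 1700012B09Rik, Ankrd49 and Mre11a. H3K27ac covered 2.92% and 3.09% of the window in MEFs, 3.74% (EA-3702), 2.51% and 3.15% (DG-3458) at day 3, 1.14%, 1.38% (DG-3458) and 1.87% (EA-3702) at day 6, 2.81% and 2.63% at day 9 and 1.84% and 2.01% in ESCs. Day 6 and ESCs were the lowest in percent and overlapped each other, while MEFs and day 3 overlapped. Relative coverage was 0.527 ± 0.0185 (SD, n = 2) in MEFs, 1.24 ± 0.270 (SD, n = 3) at day 3 and 1.14 ± 0.231 (SD, n = 3) at day 6. It was 0.640 ± 0.0382 (SD, n = 2) at day 9 and 0.348 ± 0.0348 (SD, n = 2) in ESCs, so days 3 and 6 overlapped above the other stages.

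The Fut4 window was called higher in relative coverage at day 3 than in MEFs (log2 difference 1.07 ± 0.18, SE; limma adjusted p = 0.00145), where 20.4% of genes were called higher. In the percent not divided by the library mean the difference was 0.04 (adjusted p = 0.941), and with 10 kb and 2.5 kb to each side it was 1.03 and 1.02 with adjusted p of 0.446 and 0.593. Day 6 minus day 3 was -0.11 ± 0.16 (SE; limma adjusted p = 0.664) and ESC minus MEF -0.49 ± 0.20 (SE; limma adjusted p = 0.0599), neither of them called. Undivided, day 6 minus day 3 was -1.05 and called (adjusted p = 0.00413). ESC minus MEF at Fut4 was called in 5 of 22 alternatives (adjusted p from 0.0259 to 0.0454), namely the q limit of 0.01, the replicate block, and without either DG-3458 library of day 3 or the DG-3458 library of day 6 with 1.38% coverage. With equal numbers of top peaks it was 0.28 (adjusted p = 0.333).

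Most of this coverage was not at Fut4 itself. The best-ranked region, chr9:14783688-14785851, lies 31.6 kb away over the facing ends of Ankrd49 and Mre11a and had a peak in all 12 libraries, as 7.74% of all regions did. The merged region chr9:14751325-14752477, which is wider than the printed promoter and contains it, was present from MEFs to day 9 and undecided in ESCs, with peaks in 2 of 2, 3 of 3, 2 of 3, 2 of 2 and 1 of 2 libraries in that order. By the deposited score its best peak ranked in the top 20.7% to 32.5% in MEFs, the top 16.0% to 38.0% at day 3 and the top 87.4% in the single ESC library. Next in rank, chr9:14728841-14730040 inside Piwil4, had a peak in all 3 day 3 libraries and in none of the other 9.

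KLF4 coverage of the Fut4 window was low throughout, from 0.146% to 0.498% and in relative coverage from 0.214 to 0.606, and the stages overlapped. The region chr9:14740607-14740874, 7.59 kb from Fut4 at the end of Piwil4, was present at day 6, day 9 and in serum ESCs and absent at day 3 and in 2i. The region chr9:14784599-14784918 at Ankrd49 and Mre11a was present at day 9 alone, with single peaks at days 3 and 6. Neither the stages as a whole (limma adjusted p = 0.297) nor day 9 minus day 3 or ESC minus day 3 passed the test for Fut4 (limma adjusted p = 0.538 and 0.552).

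**Figure D1:**
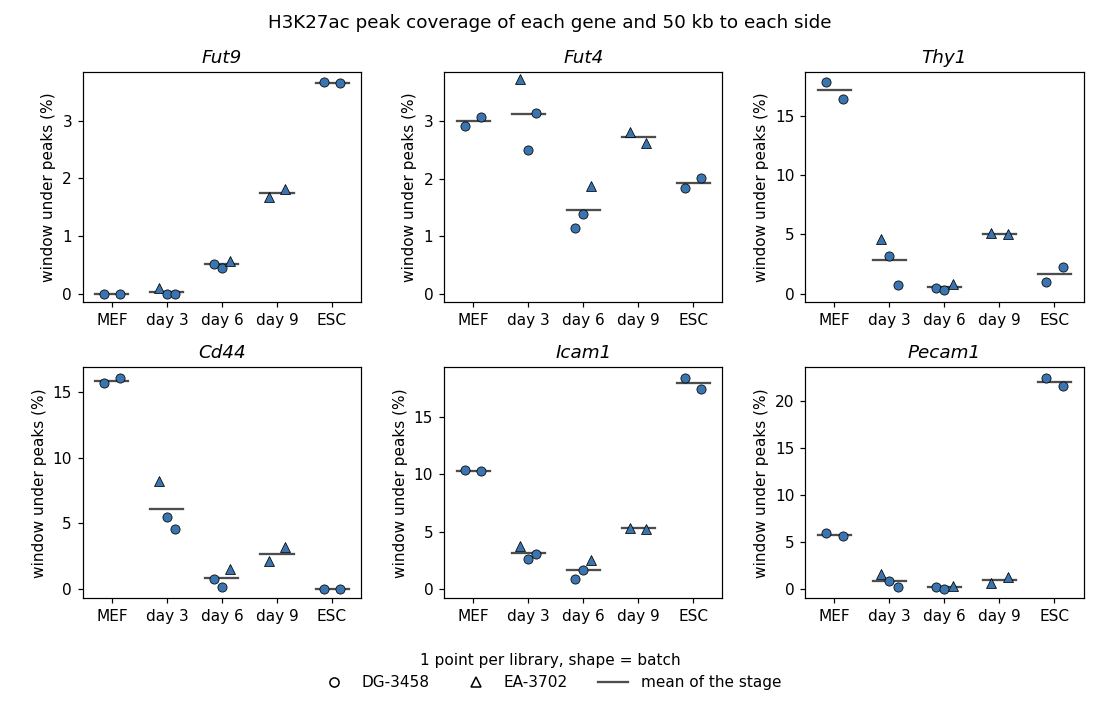
Percent of each gene's window (the gene and 50 kb to each side) under H3K27ac peaks, by stage, with 1 point per library, point shape for the batch and a line at the stage mean. Fut9 is at 0% in MEFs and at 3.65% and 3.66% in ESCs, Thy1 and Cd44 are highest in MEFs, and Icam1 and Pecam1 are lowest at day 6 and highest in ESCs.

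The H3K27ac regions over both ends of Thy1 were present in MEFs and at day 3 and had no peak in any later library, while a region at the neighbour Usp2 had a peak in all 12 libraries. The gene spans chr9:44043384-44048579, 5.20 kb, and Usp2, which encodes a ubiquitin protease, begins 18.4 kb away. H3K27ac covered 17.8% and 16.4% of the window in MEFs. At day 3 it covered 4.61% in the EA-3702 library and 3.17% and 0.759% in the DG-3458 libraries, and at day 6 0.453%, 0.287% (DG-3458) and 0.840% (EA-3702). At day 9 it covered 5.08% and 4.98%, and in ESCs 1.02% and 2.22%. MEFs lay above all other libraries, and the lowest day 3 library fell within the range of day 6. Day 9 was higher than day 6 and ESCs in every library.

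In relative coverage Thy1 stood at 3.01 ± 0.185 (SD, n = 2) in MEFs, 1.03 ± 0.579 (SD, n = 3) at day 3 and 0.380 ± 0.0789 (SD, n = 3) at day 6. It stood at 1.18 ± 0.0330 (SD, n = 2) at day 9 and 0.296 ± 0.165 (SD, n = 2) in ESCs. ESCs were lower than MEFs by 3.04 on the log2 scale (difference -3.04 ± 0.52, SE; limma adjusted p = 0.000801), where 34.9% of genes were called lower. Day 3 was lower than MEFs (-1.64 ± 0.48, SE; limma adjusted p = 0.0201, 26.4% of genes called lower). That call was lost without either MEF library (adjusted p = 0.101 and 0.0816) and with 2.5 kb to each side (adjusted p = 0.107). Day 6 minus day 3 was -1.07 ± 0.42 (SE; limma adjusted p = 0.0707), a step at which 19.4% of genes were called lower. It was called without the second DG-3458 library of day 3 (-1.62, limma adjusted p = 0.00198) and undivided (-2.01, adjusted p = 0.0274). It was also called with narrower windows, which leave Usp2 out, at 10 kb (-4.18, adjusted p = 0.000191) and 2.5 kb (-4.98, adjusted p = 7.75e-05). With equal numbers of top peaks it was 1.23, of the opposite sign (adjusted p = 0.165). The stage effect passed (limma adjusted p = 0.00227).

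Of 14 H3K27ac regions around Thy1, 13 were present in MEFs and 3 in ESCs, against 4, 2 and 4 on days 3, 6 and 9. Over all H3K27ac regions the shares present were 56.5% and 45.8%, against 25.4%, 12.1% and 29.7%, in that order. The 14 became 4 with equal numbers of top peaks or with 10 kb, 22 with a peak in any library, and 14 to 18 without a library. The first by mean rank, chr9:44040048-44044742, covers the lower-coordinate end of Thy1. It had a peak in 2 of 2 MEF and 3 of 3 day 3 libraries and in none of days 6, 9 or ESC. The second by mean rank, chr9:44038791-44040020, 3.36 kb outside that end, was present in MEFs alone, so its mean rests on those lists. A region over the upper-coordinate end, chr9:44047901-44050074, had a peak in 2 of 2 MEF and 2 of 3 day 3 libraries and none later. Next in mean rank after the second, chr9:44065605-44068412 at the end of Usp2, had a peak in all 12 libraries. Within the MEF lists this Usp2 region ranked better than the first and second, in the top 3.66% to 3.95%. The first stood there in the top 7.60% to 8.73% and the second in the top 17.9% to 19.2%. Every region present at days 6 and 9 and in ESCs lay at or inside Usp2, so the day 9 coverage was not over Thy1.

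No KLF4 region lay within Thy1. KLF4 covered 2.41% and 1.10% of the window at day 3, 0.959% and 0.814% at day 6, 0.852% and 0.544% at day 9, 0.652% and 1.13% in serum ESCs and 1.81% and 1.90% in 2i, with EA-3702 the higher of the pair at day 3. In percent, days 6, 9 and serum ESC overlapped. In relative coverage, serum ESCs at 1.37 and 1.63 lay above days 6 and 9, which overlapped between 0.717 and 1.28, and below day 3 at 1.87 and 1.99. The region chr9:44084563-44085098 inside Usp2 had a peak in all 10 libraries, as 11.3% of KLF4 regions did. The region chr9:44059312-44059757, 10.7 kb from Thy1, was present in 2i alone, and chr9:44064112-44064482 at day 3 alone, with 1 peak at day 6. Across all genes the KLF4 stage effect at Thy1 did not pass (limma adjusted p = 0.114), while the exact permutation test on this gene alone gave an unadjusted p = 0.00635.

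Cd44 had 18 H3K27ac regions in MEFs, then 7, 2 and 4 on days 3, 6 and 9 and 0 in ESCs, and was the only one of the 6 genes with no peak in ESCs. Over all H3K27ac regions the shares present were 56.5%, then 25.4%, 12.1% and 29.7%, and 45.8%, in that order. The 20 regions of Cd44 in all became 5 with equal numbers of top peaks, 10 with 10 kb, 42 with a peak in any library and 31 without replicate 1 of the MEFs. The gene spans chr2:102811141-102901669, 90.5 kb, and only Slc1a2 shares its window. H3K27ac covered 15.7% and 16.0% of the window in MEFs, 8.20% (EA-3702), 5.46% and 4.59% (DG-3458) at day 3, 0.740%, 0.188% (DG-3458) and 1.52% (EA-3702) at day 6, 2.17% and 3.24% at day 9, and 0% in both ESC libraries. The stages did not overlap. Their order was MEF, day 3, day 9, day 6 and ESC. Day 9 was profiled in batch EA-3702 alone, and the single EA-3702 library of day 6 was also the highest of its stage. Relative coverage was 2.78 ± 0.0345 (SD, n = 2) in MEFs and 2.33 ± 0.212 (SD, n = 3) at day 3, then 0.551 ± 0.319 (SD, n = 3) at day 6 and 0.634 ± 0.169 (SD, n = 2) at day 9, which overlapped.

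In relative coverage Cd44 was called lower at day 6 than at day 3, while day 3 was not called lower than MEFs. In percent, day 3 lay below MEFs. So did the mean over all gene windows, at 2.05% to 3.18% at day 3 against 5.68% and 5.72% in MEFs. In relative coverage of Cd44, day 3 minus MEF was -0.25 ± 0.41 (SE, log2, limma adjusted p = 0.685). It lay between -1.41 and -0.17 over 22 alternatives and was called in none. The day 6 minus day 3 difference was -2.06 ± 0.36 (SE, limma adjusted p = 0.00225). The latter call held under all 22 alternatives. ESCs were called lower than MEFs (limma adjusted p = 1.64e-05), with Cd44 listed at 0 in both ESC libraries, and the stage effect passed (limma adjusted p = 4.41e-05).

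The regions of Cd44 differed in how long they stayed. The first by mean rank, chr2:102872170-102875441 inside the gene, was in the top 3.62% to 5.45% of the MEF lists by the deposited score and had no peak in any later library. Its mean rank thus rests on the MEF lists, and within those the second region ranked better. The second, chr2:102939569-102946729, lies 37.9 kb upstream of the promoter end and spans 7161 bases. It was in the top 0.377% to 0.514% of the MEF lists and had a peak in every library of days 3, 6 and 9 and in no ESC library. The promoter region chr2:102898257-102902478 had a peak in 2 of 2 MEF, 3 of 3 day 3, 2 of 3 day 6, 2 of 2 day 9 and 0 of 2 ESC libraries. By the deposited score its best peak stood in the top 2.56% to 4.02% of the MEF lists and the top 38.7% to 39.0% of the day 9 lists. Of the 20 regions, 10 were present in MEFs and absent, with no peak in any library, at all other stages, as were 29.7% of all regions. The pattern of presence in MEFs and absence in ESCs held for 18 of 20 at Cd44 and 11 of 14 at Thy1, against 39.4% of all regions. The remaining 2 regions of Cd44, chr2:102837642-102838301 and chr2:102838414-102839332, were present at day 9 alone.

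Of 8 KLF4 regions at Cd44 (4 with q at most 0.01 or with top peaks, 13 with a peak in any library), 6 were present at day 3, 3 at day 6, 3 at day 9, 0 in serum ESCs and 1 in 2i. Over all KLF4 regions the shares present were 48.1%, 40.2%, 51.5%, 43.4% and 40.5%, in that order. Presence at day 3 with absence in serum ESCs held for 4 of the 8 at Cd44, against 19.4% of all KLF4 regions. KLF4 covered 1.83% (EA-3702) and 1.31% (DG-4040) of the window at day 3, 0.347% and 0.747% at day 6, 0.572% and 0.461% at day 9, 0.118% and 0% in serum ESCs and 0.174% and 0.372% in 2i. Day 3 lay above all other stages, and days 6 and 9 overlapped. The same held in relative coverage, with 1.51 and 2.22 at day 3 and at most 1.18 elsewhere. The KLF4 stage effect at Cd44 did not pass (limma adjusted p = 0.0816), while the exact permutation test on Cd44 alone gave an unadjusted p = 0.0434. It passed in limma with q at most 0.01 (adjusted p = 0.0075), with a pseudocount of 0.5 (0.0283), undivided (0.0398) and without the EA-2697 library of serum ESCs (0.0492). The best-ranked region, chr2:102934372-102935214, 32.7 kb upstream, had a peak in both libraries of days 3, 6 and 9 and in no ESC library, and it lies in an H3K27ac region that was present in MEFs and at day 3. The promoter region chr2:102900936-102901901 had a peak in both day 3 and both day 9 libraries and in 1 of 2 at day 6, in serum ESCs and in 2i. The third, chr2:102838317-102838725, was present at days 3, 6 and 9, while the H3K27ac region it overlaps and the one next to it were present at day 9 alone.

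Serum ESCs were lower than day 3 in KLF4 coverage of Cd44 (-3.28 ± 0.70, SE, log2; limma adjusted p = 0.028), where 5.92% of genes were called lower. The call was lost in 8 of 17 alternatives. These were both narrower windows (adjusted p = 0.115 and 0.141), no filter (0.0623) and the removal of either day 3 library (0.0714 and 0.127), either day 9 library (0.051 each) or the ESC library of batch EA-2643 (0.0821, with a difference of -2.29). Day 9 minus day 3 was -1.26 ± 0.70 (SE; limma adjusted p = 0.377), with 1.98% of genes called lower at that step. With only peaks of q at most 0.01 day 9 was called lower, by a larger difference (-4.55, limma adjusted p = 0.0077). Serum ESCs and reprogramming cells came from different batches, so batch and stage cannot be told apart for KLF4 in serum ESCs.

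**Figure D2:**
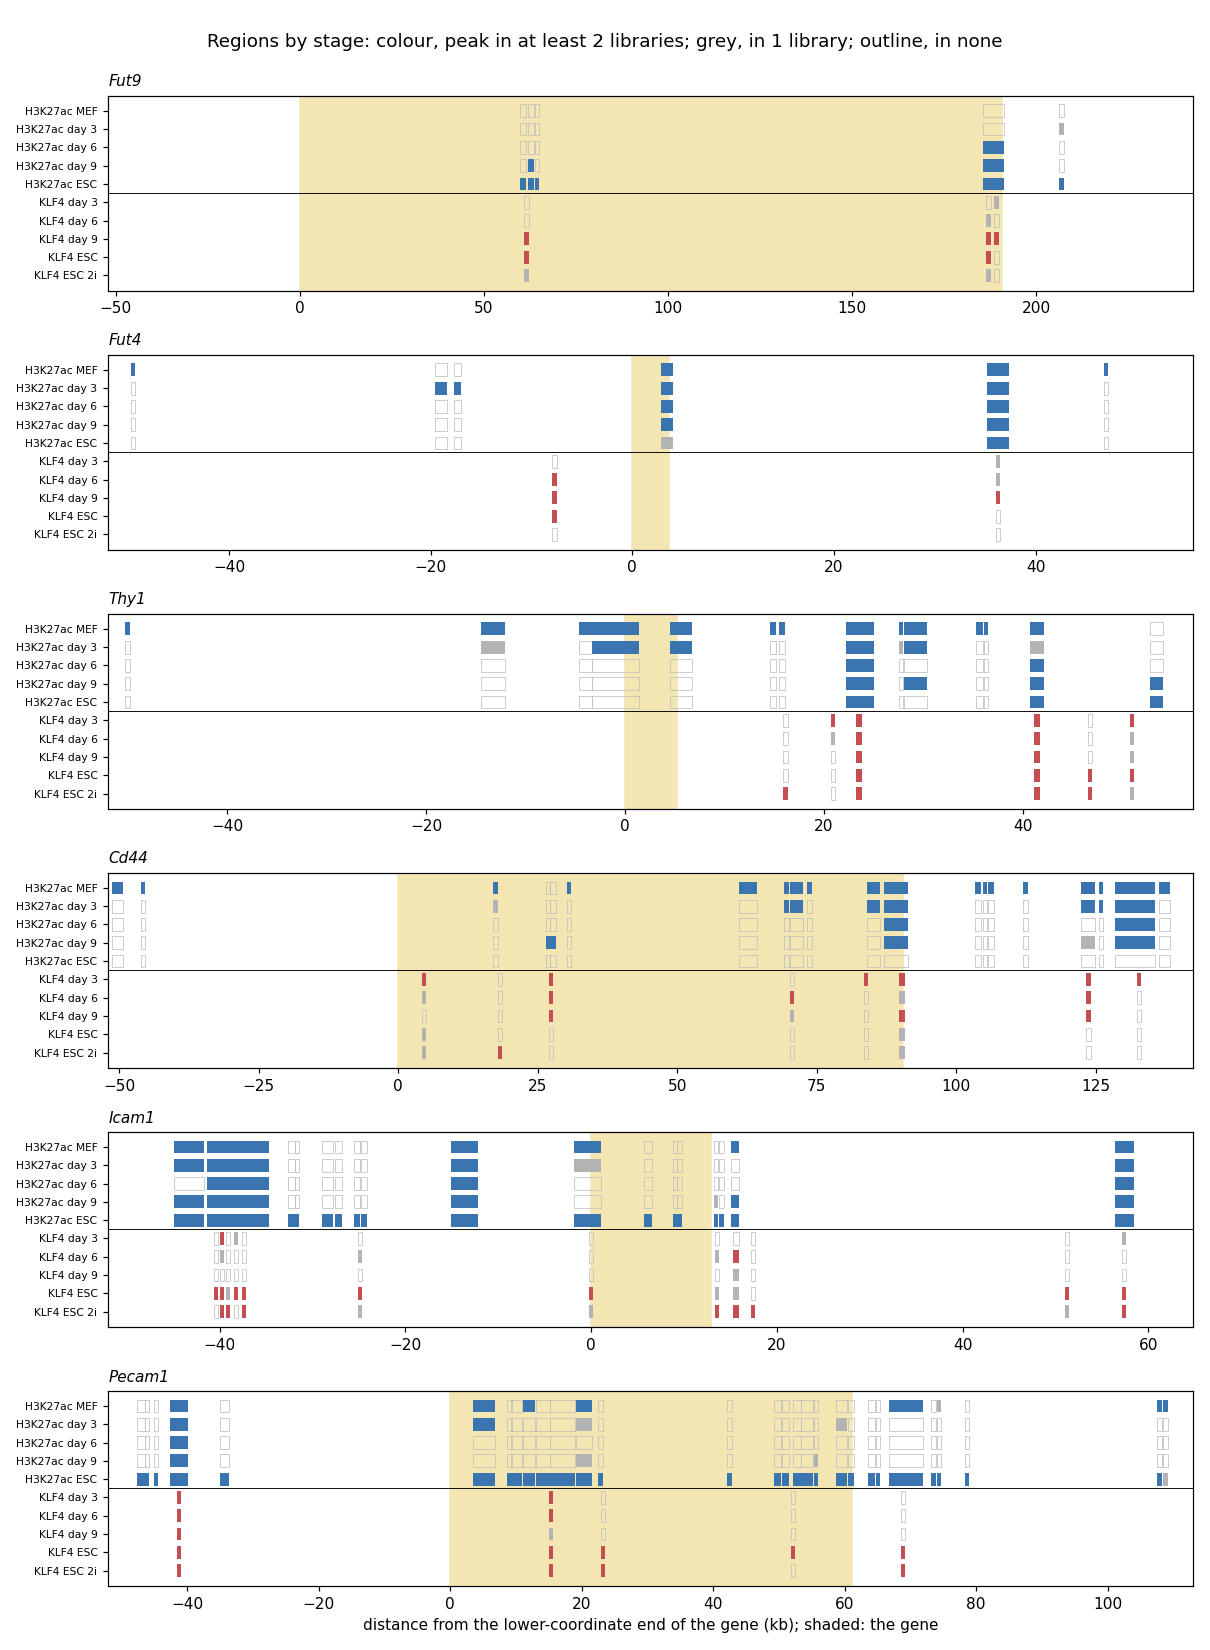
Regions around each gene by stage, drawn along the distance in kb from the gene's lower-coordinate end, with the gene shaded; H3K27ac stages are above the line and KLF4 stages below it, and regions too narrow to see are widened. Colour marks a peak in at least 2 libraries, grey in 1 and an empty outline in none, so that Cd44 empties from 18 H3K27ac regions in MEFs to 0 in ESCs and Pecam1 fills from 1 at day 9 to 28 in ESCs. Over all H3K27ac regions, 56.5% were present in MEFs, 29.7% at day 9 and 45.8% in ESCs.

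The Icam1 window had the most H3K27ac in ESCs. Its promoter region was present in MEFs and ESCs, undecided at day 3 and absent at days 6 and 9. The gene spans chr9:21015940-21028814, 12.9 kb, in a dense window with S1pr2, Mrpl4, Icam4, Icam5, Zglp1, Fdx2 and Raver1. H3K27ac covered 10.3% of the window in each MEF library, 3.76% (EA-3702), 2.64% and 3.04% (DG-3458) at day 3, 0.890%, 1.63% (DG-3458) and 2.58% (EA-3702) at day 6, 5.35% and 5.23% at day 9 and 18.4% and 17.4% in ESCs. No stages overlapped in percent, and their order was ESC, MEF, day 9, day 3 and day 6. In relative coverage days 3, 6 and 9 overlapped (1.06 to 1.48, 0.801 to 1.65, and 1.22 and 1.27), below MEFs (1.81 ± 0.0156, SD, n = 2) and ESCs (3.24 in both libraries).

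ESCs were called higher than MEFs at Icam1 (0.80 ± 0.27, SE, log2; limma adjusted p = 0.0267). That call did not hold without either MEF library (adjusted p = 0.0862 and 0.0917) or either ESC library (0.0871 and 0.0873), and it was lost in 9 of 22 alternatives in all. Day 3 minus MEF was -0.52 ± 0.25 (SE; limma adjusted p = 0.115). With 10 kb to each side, which leaves out Mrpl4's acetylated end, it was -2.88 (limma adjusted p = 0.00265), and with 2.5 kb -2.72 (adjusted p = 0.0106). Undivided it was -1.69 (adjusted p = 0.00317). It was also called without the DG-3458 library of day 6 with 0.890% coverage (adjusted p = 0.0149). The stage effect passed (limma adjusted p = 0.00357), and day 6 minus day 3 did not (-0.01 ± 0.22, SE; limma adjusted p = 1).

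The 3 best-ranked regions in the Icam1 window lie at neighbours. They are chr9:21072396-21074359 at the ends of Fdx2 and Raver1 and chr9:21000865-21003781 at the end of Mrpl4, each with a peak in all 12 libraries, and chr9:20974572-20981303 at the end of S1pr2, present at every stage. The Icam1 promoter region chr9:21014154-21017059 had a peak in 2 of 2 MEF, 1 of 3 day 3, 0 of 3 day 6, 0 of 2 day 9 and 2 of 2 ESC libraries. By the deposited score its best peak stood in the top 26.5% to 33.9% of the MEF lists and the top 19.7% to 20.3% of the ESC lists. All 17 regions (5 with equal numbers of top peaks, 7 with 10 kb, 27 with a peak in any library) were present in ESCs, against 45.8% of all regions. Of the 17, 10 had no peak in any library of another stage, as was so for 21.8% of all regions. Those 10 include 3 regions within Icam1 and 6 between S1pr2 and Mrpl4.

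KLF4 at Icam1 was mostly seen in ESCs, with 8 of 12 regions present in serum and 7 in 2i, against 1, 1 and 0 on days 3, 6 and 9. Over all KLF4 regions the shares present were 43.4% and 40.5%, against 48.1%, 40.2% and 51.5%, in that order. The 12 became 4 with q at most 0.01 or with 10 kb, 24 with a peak in any library, and 19 without the EA-3702 library of 2i. Presence in serum ESCs with absence at day 3 held for 5 of the 12, against 15.6% of all KLF4 regions. KLF4 covered 1.30% (EA-3702) and 0.209% (DG-4040) of the window at day 3, 0.931% and 0.552% at day 6, 0.240% and 0% at day 9, 1.41% and 2.52% in serum ESCs and 2.54% and 3.58% in 2i. All 4 ESC libraries lay above all 6 of the reprogramming days, and the day 9 libraries were the lowest apart from the DG-4040 library of day 3. In relative coverage the ESC libraries lay between 3.05 and 4.37 and the others at 1.12 or below. The best-ranked region, chr9:20978410-20978796 near S1pr2, was present in serum ESCs and in 2i and had no peak on days 3 to 9. The region chr9:21029302-21029635, 0.488 kb past the end of Icam1 at Icam4, was present in 2i, with 1 peak each at day 6 and in serum. The region chr9:20991015-20991166, 24.8 kb from Icam1, was present in serum ESCs, with 1 peak each at day 6 and in 2i. The promoter region chr9:21015787-21016017 had a peak in both serum ESC libraries and 1 2i library.

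The KLF4 stage effect at Icam1 passed in the fit of all 10 libraries (limma adjusted p = 0.0288), but 12 of 20 alternatives lost it. Among them were the removal of either serum ESC library (adjusted p = 0.0823 for EA-2697 and 0.0652 for EA-2643), either 2i library (0.0679 for EA-3702 and 0.0766 for DG-3012), the DG-4040 library of day 6 (0.0501) and the second library of day 9 (0.0511). The exact permutation test on Icam1 alone gave an unadjusted p = 0.0116. ESC minus day 3 was 2.21 ± 0.71 (SE, log2; limma adjusted p = 0.0861, with 4.81% of genes called higher), and it passed in 6 of 17 alternatives, among them the q limit (0.0306), top peaks (0.0211) and the removal of either day 9 library (0.0469). Batch and stage cannot be told apart for serum ESCs, while the 2i library of batch EA-3702 (2.54%) was higher than the 4 libraries of that batch from days 3, 6 and 9 (0% to 1.30%).

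Pecam1 had the largest H3K27ac coverage of the 6 genes in ESCs and at most 1.58% on days 3, 6 and 9. The gene spans chr11:106654213-106715281, 61.1 kb, and Tex2 and Milr1 reach into its window. H3K27ac covered 5.95% and 5.59% of the window in MEFs, 1.58% (EA-3702), 0.828% and 0.194% (DG-3458) at day 3, 0.269%, 0% (DG-3458) and 0.332% (EA-3702) at day 6, 0.676% and 1.31% at day 9 and 22.4% and 21.6% in ESCs. ESCs and MEFs lay apart from the rest, days 3 and 6 overlapped, and days 3 and 9 overlapped. In relative coverage the mean was 1.01 ± 0.0492 (SD, n = 2) in MEFs, 0.307 ± 0.202 (SD, n = 3) at day 3 and 0.139 ± 0.125 (SD, n = 3) at day 6. At day 9 it was 0.233 ± 0.103 (SD, n = 2), and in ESCs 3.97 ± 0.0416 (SD, n = 2).

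ESCs were called higher than MEFs at Pecam1 (1.87 ± 0.63, SE, log2; limma adjusted p = 0.0268). The call did not hold without either MEF library (adjusted p = 0.082 and 0.0946) or either ESC library (0.0824 and 0.0855). Day 3 was called lower than MEFs (-1.60 ± 0.57, SE; limma adjusted p = 0.0476), narrowly, and 12 of 22 alternatives lost that call. It went to 0.171 and 0.149 without either MEF library and to 0.0721 and 0.126 without either DG-3458 library of day 3. It was between 0.0519 and 0.0631 without the EA-3702 library of day 6, either day 9 library or either ESC library. Day 6 minus day 3 was -0.80 ± 0.51 (SE; limma adjusted p = 0.25), and the stage effect passed (limma adjusted p = 0.000724). That difference moved to -1.27 without the DG-3458 library of day 3 at 0.194%, to -0.46 without its EA-3702 library, and to -0.27 without the day 6 library at 0%, passing in none of these. Of 6 markers of endothelium, in which Pecam1 is also active, Cdh5 was called higher in ESCs than in MEFs and 3 were called lower, where 30.3% and 34.9% of all genes were. Their relative H3K27ac coverage summed to 2.61 in ESCs and 3.92 to 4.01 in MEFs, with Emcn at 0 in ESCs. Over 5 blood markers, 1 called higher and 4 lower against the same shares of all genes, it was 3.08 in ESCs and 3.43 to 3.50 in MEFs, with Ptprc at 0 in ESCs. The part of such cells in the Pecam1 result was not tested.

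Of 29 H3K27ac regions around Pecam1, 28 were present in ESCs, 7 in MEFs, 2 at day 3, 1 at day 6 and 1 at day 9. Over all H3K27ac regions the shares present were 45.8%, 56.5%, 25.4%, 12.1% and 29.7%, in that order. The 29 became 4 with equal numbers of top peaks, 19 with 10 kb, 47 with a peak in any library, and 29 to 43 without a library. The best-ranked, chr11:106720930-106726156, lies 5.65 kb past the gene's upper-coordinate end, was in the top 0.551% to 0.676% of the ESC lists by the deposited score and the top 13.5% to 22.7% of the MEF lists, and had no peak on days 3, 6 or 9. The next in rank, chr11:106669456-106673279 and chr11:106663471-106665207 inside the gene, were present in ESCs alone. The upper-coordinate end itself, chr11:106714697-106715665, was also acetylated in ESCs alone. In all, 19 of the 29 regions were present in ESCs and had no peak in any library of another stage, against 21.8% of all regions. The region of days 6 and 9 was chr11:106611632-106614307 at the end of Tex2, present at every stage. Presence in ESCs with absence in MEFs held for 21 of 29 regions at Pecam1, 11 of 17 at Icam1 and 5 of 5 at Fut9, against 29.6% of all regions.

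A KLF4 region inside Pecam1 was present at days 3 and 6, while the H3K27ac regions it overlaps were present in ESCs alone. Pecam1 had 5 KLF4 regions, 8 without the EA-3702 library of day 3, 9 without EA-2697 in serum ESCs, 11 without EA-3702 in 2i and 18 with a peak in any library. KLF4 covered 0.689% and 0.732% of the window at day 3, 0.438% and 0.368% at day 6, 0.251% and 0.231% at day 9, 0.705% and 1.51% in serum ESCs and 1.21% and 1.47% in 2i. In percent, days 3, 6 and 9 did not overlap and stood in falling order, and one serum ESC library fell between the 2 of day 3. In relative coverage days 3 and 6 overlapped, since the EA-3702 library of day 3 stood at 0.570 and day 6 at 0.528 and 0.580. Both serum ESC libraries, at 1.76 and 1.84, then lay above both of day 3. The best-ranked region, chr11:106669202-106669896, had a peak in 2 of 2 day 3, 2 of 2 day 6, 1 of 2 day 9, 2 of 2 serum ESC and 2 of 2 2i libraries, and it overlaps 2 H3K27ac regions. The second, chr11:106612633-106613341 at Tex2, was present at every stage, and chr11:106706316-106706488 in the gene was in serum ESCs alone. KLF4 also had a peak at chr11:106722877-106723329, within the best-ranked H3K27ac region, in both serum and both 2i libraries and in none of days 3 to 9.

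The KLF4 stage effect at Pecam1 passed (limma adjusted p = 0.0238), and 13 of 20 alternatives lost it. These included the removal of either day 9 library (adjusted p = 0.0846 and 0.0954), either serum ESC library (0.0657 for EA-2697 and 0.0561 for EA-2643) and either 2i library (0.0523 for EA-3702 and 0.0596 for DG-3012). The exact permutation test on Pecam1 alone gave an unadjusted p = 0.00529. Day 9 minus day 3 was -1.13 ± 0.36 (SE, log2; limma adjusted p = 0.133), passing without the EA-3702 library of day 3 (-1.64, adjusted p = 0.0477) and at -0.63 without the DG-4040 library of that day (adjusted p = 0.403). ESC minus day 3 was 1.00 ± 0.36 (SE; limma adjusted p = 0.113), and 0.50 and 1.51 without the EA-3702 and the DG-4040 library of day 3. With all deposited peaks, none of the 6 genes passed for day 9 minus day 3 in the limma fit of all 10 libraries, while Cd44 and Fut9 passed with peaks of q at most 0.01 (adjusted p = 0.0077 and 0.0486). With all peaks 1.99% of genes were called higher and 1.98% lower (3815 of 18861 at an unadjusted p under 0.05).

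**Figure D3:**
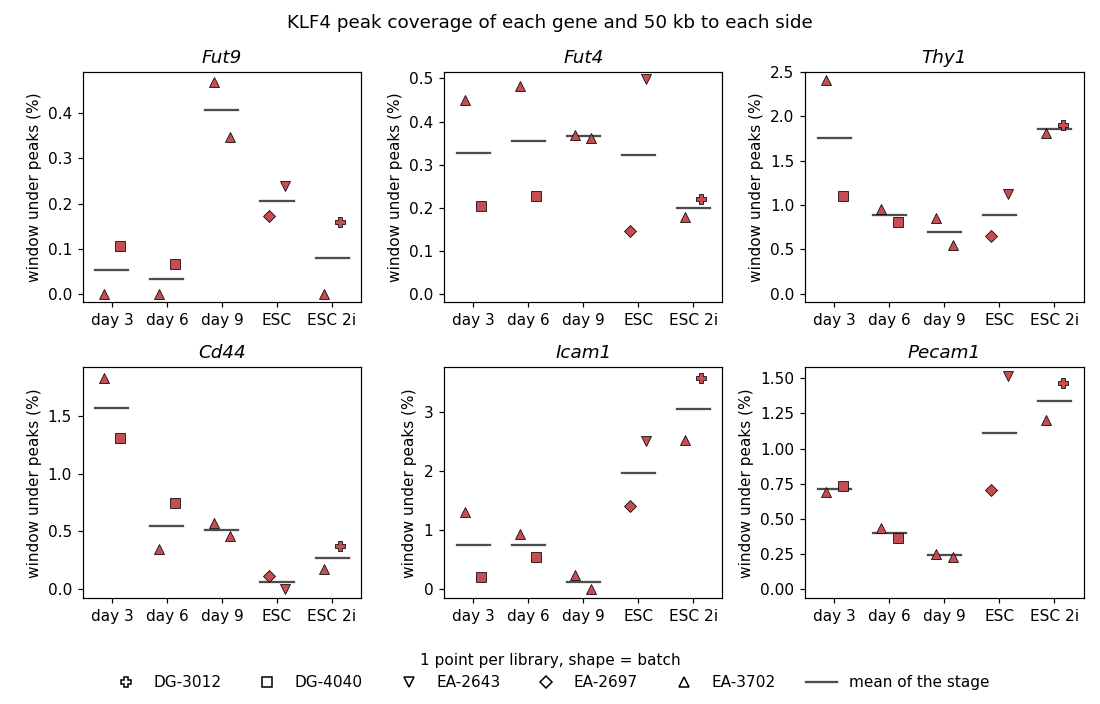
Percent of each gene's window under KLF4 peaks, by stage, with 1 point per library, point shape for the batch and a line at the stage mean. Cd44 is highest at day 3 (1.83% and 1.31%), Fut9 at day 9 (0.469% and 0.348%), and the 4 ESC libraries of Icam1 (1.41% to 3.58%) lie above the 6 of days 3 to 9.

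Other surface genes of the same cells are given by their counts of single-gene calls, with no test of the lists themselves. Of 13 surface genes of fibroblasts, Thy1 and Cd44 among them, 12 were called lower in H3K27ac in ESCs than in MEFs (34.9% of all genes) and none higher, with a median log2 difference of -2.12 against -0.07 over all genes tested. Vcam1, an adhesion receptor, had a mean relative coverage of 2.47 in MEFs and 1.38 at day 3 and was listed at 0 at day 6 and in ESCs. Ly6a, which encodes SCA1, was called higher at day 3 than in MEFs, and 9 of the 13 were called lower there (26.4% of all genes). Of 12 surface genes of pluripotent cells, Icam1 and Pecam1 among them, 9 were called higher in ESCs than in MEFs (30.3% of all genes), and Cd24a was called lower, with a median of 1.84. Their timing differed. Epcam, an epithelial adhesion molecule, had a relative coverage of 0.408 in MEFs, 1.15 at day 3, 2.36 at day 6 and 3.83 at day 9. Cdh1, which encodes E-cadherin, stood at 0.661 at day 6 and 3.68 at day 9, and Kit, a receptor tyrosine kinase, was at 0 through day 6 and at 0.465 at day 9.

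Of 25 genes listed around Lewis x synthesis, 5 were called higher in ESCs than in MEFs (Fut1, Fut9, B4galt6, B3gnt2 and Chst10; 30.3% of all genes were called higher) and 9 lower (34.9% of all genes), with a median of -0.49 against -0.07 over all genes tested. The list covers fucose supply, chain extension and capping, and also holds enzymes that do not make Lewis x itself, such as Fut1 and Fut2, which make the H antigen, Fut8, which adds core fucose, and Chst10, an HNK-1 sulfotransferase. Fut1 went from a relative coverage of 0.767 in MEFs to 3.44 in ESCs (log2 difference 2.03; limma adjusted p = 2.34e-06). Gmds, which starts the synthesis of GDP-fucose, went from 1.68 to 0.104 (-3.12; limma adjusted p = 3.86e-08). St3gal6, a sialyltransferase that can cap the chain, went from 0.841 in MEFs to 2.05 at day 3 and 0.0741 in ESCs. Between day 3 and day 6, the step that includes the SSEA1 sort, 5 of the 25 were called higher (Fut2, Fut8, Fut9, Fut11 and Gfus) and 6 lower, where 23.9% of all genes were called higher and 19.4% lower. These shares of the list are near those of all genes. In KLF4 coverage 1 of the 25 was called higher in ESCs than at day 3 and 2 lower, where 4.81% and 5.92% of all genes were.

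The order of relative H3K27ac coverage across the 12 libraries was shared by genes elsewhere. By Pearson's r of log2 values over the 12 libraries, which share stage and batch, the genes most alike on other chromosomes were Acsbg2 (0.987) and Nexmif (0.985) for Fut9, and Slc25a29 (0.976) and Cebpd (0.974) for Fut4. For Cd44 they were Fas (0.993) and Atp10a (0.990). For Icam1 they were Bard1 (0.965) and Fat2 (0.958), and for Pecam1 Adprh (0.968) and Tmem63b (0.967). An r over 0.9 was reached by 53 genes for Icam1 and by 346 for Cd44, with the other 4 between.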

How the data were processed

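Crosslinked chromatin was immunoprecipitated for H3K27ac or KLF4, per the labels' protocols. Tools named in the submitters' processing notes are cutadapt 1.8.1, Bowtie2 2.2.5, deepTools 2.3.6 and MACS2 2.1.1, with build mm10. Their settings are not given in the sources used here, and 13 input libraries were not analysed here. In the DG-3458 day 6 H3K27ac lists the peak names carry each other's replicate number, so which of them is 1 or 2 is in doubt. The authors deposited 1 peak list per library, without a header. From its values, each deposited peak has a score, its enrichment as a ratio or fold, and 2 columns of −log10 values, for p-value and q-value. Reads per library are not in these lists, so sequencing depth is unknown. The antibody catalogue number in the labels rises by 1 from library to library, while the protocol names 1 antibody per target.

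The members and gene lists were chosen with earlier results of these data known. The 3 best-ranked regions per gene and mark by deposited score, and the 2 genes most alike, were named by rule; the genes most alike to Thy1 are not reported here. Promoter and gene-end regions, the day 9 regions of Cd44 and chr11:106722877-106723329 were added after their values were seen. Gene positions came from RefSeq GRCm38.p6, the assembly of mm10. Windows of neighbouring genes share peaks. Relative coverage plus 0.1 was compared on the log2 scale with limma 3.58.1 (R 4.3.3), over genes with a peak in at least 2 libraries of the mark, with Benjamini-Hochberg adjustment over all of them at 0.05. All stages of a mark shared 1 estimate of the spread. Single genes were also tested by exact permutation of the library labels. The submitters call the replicates biological without naming animals, so p-values measure the spread between these libraries. Python 3.11.15 was used for intervals and tested on simulated data. Alternatives were the pseudocount, window, q-value limit (0.01), equal numbers of peaks, scaling, filter, batch, replicate block and each library left out.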

Additional observations from a re-analysis of the deposited data

How the results depend on the processing

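Of 1062 values at these genes under alternatives, 912 kept their direction and side of the threshold, 67 lost a call, 33 gained one, 13 changed sign and 37, counts of regions, moved. The sign changes concern values that were not called. For H3K27ac day 6 minus day 3, Icam1 went to 0.11 with q at most 0.01, Thy1 to 1.23 and Pecam1 to 0.62 with equal numbers of top peaks, and without a library Fut4 lay between -0.26 and 0.044 and Icam1 between -0.22 and 0.26. For ESC minus MEF, Fut4 went to 0.28 with top peaks. For KLF4 day 9 minus day 3, Icam1 went to 1.72 with 10 kb, and Fut4 to -2.43 with 2.5 kb, -2.31 with the q limit and -0.26 with top peaks. For KLF4 ESC minus day 3, Fut4 went to -0.12 with 2.5 kb and -0.092 undivided. The cause was not tested.

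Counts of genes called moved most for KLF4. The KLF4 stage effect (2406 genes) gave 3745 with a pseudocount of 0.5, 1449 with 10 kb, 1173 with 2.5 kb, 1031 with the q limit and 798 undivided. Day 9 minus day 3 (750) gave 454 with 2.5 kb, 372 with the q limit and 116 undivided, and ESC minus day 3 (2024) gave 1091, 863, 791 and 781 in the order 10 kb, 2.5 kb, q limit and undivided. With batch as a term on days 3 to 9, limma called 0 genes for the stage effect and for day 9 minus day 3 (3978 at an unadjusted p under 0.05 for day 9 minus day 3). Days 3 to 9 without that term, added after seeing the data, gave 492 for the stage effect and 607 for day 9 minus day 3. H3K27ac day 6 minus day 3 (8559) gave 4923 with 2.5 kb and 4662 with top peaks. Leaving out 1 library gave 6069 to 10192 for H3K27ac day 3 minus MEF (9253), 1045 to 2668 for the KLF4 stage effect, 0 to 933 for day 9 minus day 3 and 553 to 2223 for ESC minus day 3. The counts over 1.5 times off were those without either MEF library (6161 and 6069), and for KLF4 those without either day 9 library (stage effect 1045 and 1138, day 9 minus day 3 0 in both with 2406 and 2517 at an unadjusted p under 0.05, ESC minus day 3 1301 and 1308), the day 3 library of DG-4040 (1496, 218 and 662), the day 3 library of EA-3702 (ESC minus day 3 1250), the ESC library of EA-2697 (stage effect 1547, ESC minus day 3 553) and the 2i library of DG-3012 (stage effect 1582).

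In undivided percent the median of all genes was -1.12 for day 3 minus MEF, -0.70 for day 6 minus day 3, -0.17 for KLF4 day 9 minus day 3 and -0.50 for KLF4 ESC minus day 3. The calls were 293 higher and 12167 lower for day 3 minus MEF (4033 and 5220 when divided), 67 and 8240 for day 6 minus day 3 (4725 and 3834) and 193 and 588 for KLF4 ESC minus day 3 (908 and 1116). Without either day 3 library, the divided KLF4 calls for ESC minus day 3 were mostly higher, not mostly lower. Replicate numbers in batch DG-3458 did not pair the libraries (correlations of deviations -0.00779 to 0.0185). A replicate block there gave 17112, 9583, 8056 and 13419 genes for the stage effect, day 3 minus MEF, day 6 minus day 3 and ESC minus MEF, against 17341, 9966, 8548 and 13616 without it, the latter added after seeing the data. Under the block Fut4 ESC minus MEF passed (adjusted p = 0.0382). The day 6 numbers in that block are in doubt, since the peak names carry them swapped. For KLF4 the batch term pairs days 3 and 6 by batch, and replicate numbers gave no other pairing. Limits: peak lists carry no read depth, a peak's absence depends on its caller's threshold, day 9 has 1 batch, and narrow windows hold few peaks.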
